A study of Mus musculus with 24 samples.

Results

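The genes described here are 32 genes of the oligodendrocyte lineage, chosen by name from the 45706 genes of the deposited count table. They comprise 8 genes of precursors and early lineage cells (Pdgfra, Cspg4, Cspg5, Olig1, Olig2, Sox10, Gpr17 and Bmp4) and 24 genes of myelin and of myelinating cells. All 32 had a row in the table, and all 32 passed the filter on low counts that left 15667 genes for testing. Poly(A) RNA of the whole hypothalamus was sequenced from male mice with diet-induced obesity, which weighed 53 g on average and were housed in pairs. The PSD-95i group (8 libraries) was given 25 mg/kg of UCCB01-147, which targets PSD-95, a postsynaptic scaffold of glutamatergic synapses. The PICK1i group (8 libraries) was given 56 mg/kg of mPD5, which targets PICK1, a scaffold protein that helps traffic AMPA receptors. The saline group (8 libraries) was given isotonic saline. All mice were injected daily for 5 days and killed 2 h after the last injection. The protocol counts 6 saline mice where the labels give 8 saline libraries, and all 8 were used. Nothing in the labels says which animal a library came from, so the p-values measure the spread between libraries.

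Oligodendrocytes are the cells that wrap axons of the central nervous system in myelin, a stack of membrane rich in lipid and in a few abundant proteins. They arise throughout life from precursor cells that carry the PDGF receptor alpha and the proteoglycan NG2, pass through a brief stage marked by Gpr17, Enpp6 and Bcas1, and then switch on the myelin genes under the transcription factors Sox10 and Myrf. The hypothalamus holds both precursors and myelinating cells, and its median eminence is a site where new oligodendrocytes keep forming in adult rodents.

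The label of the tissue was checked with 14 hypothalamic genes, none of which was at 0 throughout any group. This does not show the tissue of each library. In PICK1i the lowest values of Agrp, Rax, Nr5a1 and Pomc were 0.222, 0.443, 2.66 and 8.20 CPM, against medians of 4.09, 5.30, 21.8 and 111 CPM. Each of these lowest values was that of PICK1i replicate 6. The lowest PICK1i values of Pmch and Trh, at 339 and 129 CPM, lay nearer their medians of 389 and 169 CPM. Library totals lay between 4762703 and 9228858 estimated counts, with a median of 7628245. Saline replicates 2 and 3 stood apart from the other libraries. A list of 10 pituitary genes, among them Gh and Prl, which encode growth hormone and prolactin, summed to 62806 CPM and 38991 CPM in these 2 libraries, against 5.61 to 26.4 CPM in the other 6 saline libraries. CPM values here are counts relative to library totals that were scaled by TMM. The lists of astrocyte and neuron genes were at 62.6% and 71.9% of the median of the other 6 in saline replicate 2, and at 70.2% and 77.9% in saline replicate 3. PICK1i replicates 1, 2, 5 and 6 also differed from the rest. Mitochondrial transcripts made up 13.5% to 16.6% of their counts, and longer transcripts were relatively low in them. Counts of genes that passed are given below with and without these libraries.

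The genes of myelin spanned a wide range of abundance. Per transcript length, Mbp (myelin basic protein, which compacts the membrane stack) was the most abundant of the 32, with 2701 ± 205 TPM in PSD-95i, 3217 ± 777 TPM in PICK1i and 2615 ± 845 TPM in saline (SD, n = 8 each). In saline it ranked 25 among all genes of the table. Mobp (a small basic protein of compact myelin) followed with 1154 ± 97.7 TPM in PSD-95i, 1343 ± 231 TPM in PICK1i and 1025 ± 337 TPM in saline. Plekhb1, a membrane-associated protein, and Qdpr, which regenerates tetrahydrobiopterin, averaged 503 and 332 TPM in saline. Mag, Car2, Mal and Olig1 lay between 151 and 179 TPM there, close enough that their order was within the SDs. The scarcest of the 32 were a receptor and a ligand of precursors and an enzyme of newly forming cells. Pdgfra averaged 6.06 ± 1.24 TPM, Bmp4 3.67 ± 2.26 TPM and Enpp6 1.75 ± 0.863 TPM in saline.

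For PICK1i against saline, 5 of the 32 genes passed the test at an adjusted p of 0.05, and all 5 were higher in PICK1i: Cspg5 among the precursor genes and Bcas1, Mobp, Nkx6-2 and Qdpr among the myelin genes. That is 15.6% of the 32, where 9.15% of all genes tested passed in either direction, 4.88% passed as higher and 4.27% as lower. At an unadjusted p under 0.05 there were 17 of the 32 and 4509 of the 15667 genes. The median log2 fold change was 0.25 for the 24 myelin genes, of which 23 were above 0, and 0.11 for the 8 precursor genes, of which 5 were above 0. The median of all genes tested was -0.009. In no case did the 8 PICK1i libraries separate from the 8 saline libraries, as they did for 0.179% of all genes. In tissue RNA, more oligodendrocytes and more RNA per oligodendrocyte cannot be told apart. None of the 32, and 5 of all 15820 genes tested, passed without saline replicates 2 and 3, where the myelin median was 0.08, as described after the single genes. None of the 32 passed either with only the 2 groups fitted, with a covariate for the length trend of each library, or by limma-voom with consecutive libraries as a random block, where the myelin medians were 0.24, 0.23 and 0.27. Over all genes, 0 of 15287, 2 of 15667 and 316 of 15667 passed there.

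**Figure D1:**
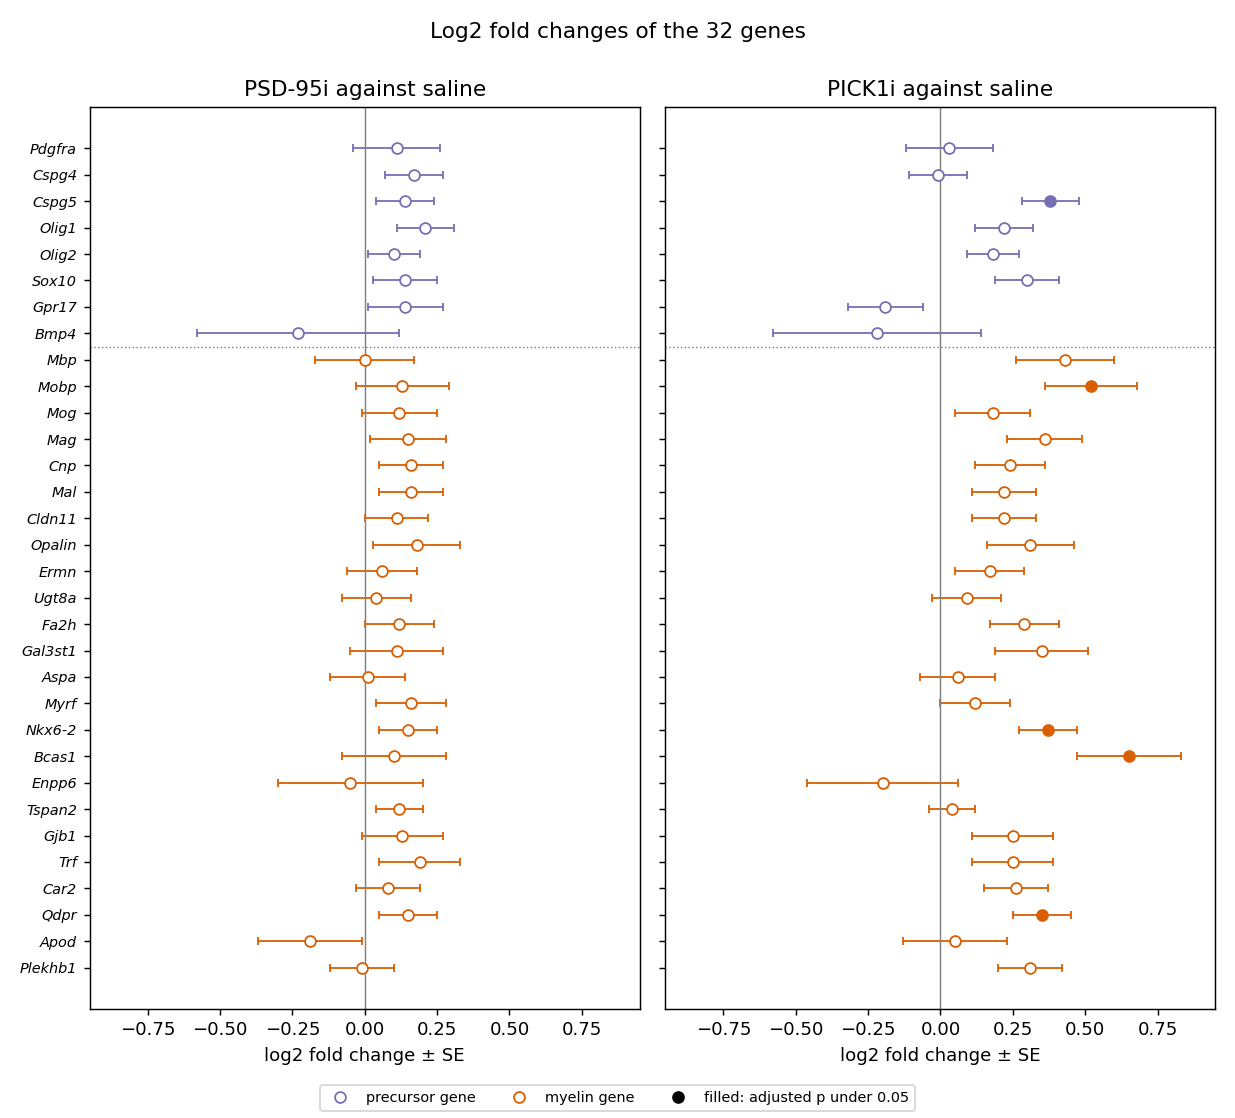
Log2 fold changes with standard errors (x axis) of the 32 genes (rows, precursor genes above the dotted line and myelin genes below it) for PSD-95i against saline (left) and PICK1i against saline (right). Filled points passed an adjusted p of 0.05: 5 genes for PICK1i and 0 for PSD-95i.

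Cspg5 encodes neuroglycan C, a transmembrane chondroitin sulfate proteoglycan that precursors and neurons also carry. The gene lies at chr9:110243783-110262576 on the plus strand of GRCm38. Its lowest, median and highest values were 98.4, 120.8 and 166.9 CPM in PICK1i, against 62.1, 98.3 and 107 CPM in saline. The 6 highest PICK1i libraries lay above every saline library, and the lowest saline values were those of replicates 2 and 3. The means were 121 ± 21.1 CPM in PICK1i and 93 ± 15.3 CPM in saline (SD, n = 8 each). The log2 fold change was 0.38 ± 0.10 (SE), a 1.30-fold difference, with an adjusted p of 0.0253 by edgeR's quasi-likelihood test. Leaving out saline replicates 2 and 3 gave 0.25 ± 0.08 with an adjusted p of 0.0845, in a range of 0.00864 to 0.688 over 28 alternatives.

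The transcription factors that specify the lineage did not pass. Sox10, which drives myelin genes in oligodendrocytes, had 66.2, 78.4 and 83.5 CPM as lowest, median and highest values in PICK1i, against 37.3, 69 and 77.2 CPM in saline. In 5 of 8 PICK1i libraries Sox10 exceeded the highest saline library, and its log2 fold change was 0.30 ± 0.11 with an adjusted p of 0.0699. Olig2, the basic helix-loop-helix factor present from precursor to mature cell, spanned 43.1 to 52.1 CPM around a median of 47.8 in PICK1i, against 29.4 to 51 CPM around 44.3 in saline. The groups overlapped except for the 2 highest PICK1i libraries, and the log2 fold change was 0.18 ± 0.09 (adjusted p = 0.16 by edgeR). Its neighbour on chromosome 16, Olig1, had the same adjusted p and a log2 fold change of 0.22 ± 0.10.

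Pdgfra and Cspg4 showed values close to saline. Pdgfra, the receptor through which PDGF-A keeps precursors dividing, had 10.4, 15.6 and 22.1 CPM as lowest, median and highest in PICK1i, against 9.84, 16.4 and 19.6 CPM in saline. The groups covered nearly the same span, and the log2 fold change was 0.03 ± 0.15 (adjusted p = 0.917 by edgeR). Cspg4, the NG2 proteoglycan of precursors, was at -0.01 ± 0.10. Gpr17, an orphan receptor of cells about to differentiate, had a log2 fold change of -0.19 ± 0.13, and its lowest PICK1i library, at 33.7 CPM, was replicate 6. Only 1 of 8 PICK1i libraries exceeded its saline median. The Gpr17 mean was 54.2 ± 13.3 CPM in PICK1i, 62.2 ± 13.5 CPM in saline and 68.8 ± 6.18 CPM in saline without replicates 2 and 3 (SD, n = 8, 8 and 6). Bmp4, a ligand that holds back differentiation, was the least certain of the 8, with a log2 fold change of -0.22 ± 0.36.

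Of the myelin genes, Bcas1 had the largest fitted change. Bcas1 is a protein of early myelinating cells that stays in mature myelin, and its gene lies at chr2:170346991-170427845 on the minus strand. Its lowest, median and highest values were 93.3, 156 and 275.9 CPM in PICK1i, against 47.7, 110.5 and 139 CPM in saline. PICK1i replicate 6 was the highest library and saline replicate 2 the lowest, and 5 of 8 PICK1i libraries exceeded every saline library while the rest overlapped. The log2 fold change was 0.65 ± 0.18, a 1.57-fold difference (adjusted p = 0.0306, edgeR). It was 0.47 ± 0.16 with an adjusted p of 0.0944 without saline replicates 2 and 3, and the adjusted p ran from 0.0108 to 0.899 over 28 alternatives.

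Mobp (chr9:120149707-120181484, plus strand) had 1174, 1655 and 2316 CPM as lowest, median and highest values in PICK1i, against 599, 1223 and 1580 CPM in saline. The highest PICK1i libraries were replicates 6 and 5, the lowest saline libraries were replicates 2 and 3, and the groups overlapped between them. The means of 1727 ± 411 CPM in PICK1i and 1205 ± 367 CPM in saline gave a log2 fold change of 0.52 ± 0.16 (adjusted p = 0.0412, edgeR). With saline replicates 2 and 3 left out, the saline mean was 1368 ± 234 CPM (n = 6), the log2 fold change was 0.33 ± 0.13 and the adjusted p was 0.117, in a range of 0.0193 to 0.962 over 28 alternatives.

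Nkx6-2, a homeodomain factor needed for the normal contact of myelin with the axon (chr7:139579376-139582797, minus strand), had 33.7, 45.3 and 53.4 CPM as lowest, median and highest in PICK1i, against 23.8, 34.8 and 44.5 CPM in saline. The groups overlapped, with 4 of 8 PICK1i libraries above the saline maximum. The log2 fold change was 0.37 ± 0.10 (adjusted p = 0.0291, edgeR). It was 0.24 ± 0.09 without saline replicates 2 and 3 (adjusted p = 0.108), within 0.00806 to 0.753 over 28 alternatives. Reads of Nkx6-2 may include some of Inpp5a, whose exons overlap it by 246 bases on the opposite strand, because the use of strand in counting is not given in the sources used here. The same limit holds, among others, for Cnp (Dnajc7, 154 bases), Gpr17 (Lims2, 188 bases) and Bcas1 (Bcas1os1, 440 bases).

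Qdpr (chr5:45434021-45450236, minus strand) had 144.9, 177 and 238 CPM as lowest, median and highest in PICK1i, against 105, 153 and 181 CPM in saline. Only 3 of 8 PICK1i libraries exceeded the highest saline library, and the lowest saline library was replicate 3. The log2 fold change was 0.35 ± 0.10 (adjusted p = 0.0342, edgeR), and 0.23 ± 0.09 (adjusted p = 0.123) without saline replicates 2 and 3, within 0.0163 to 0.898 over 28 alternatives.

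**Figure D2:**
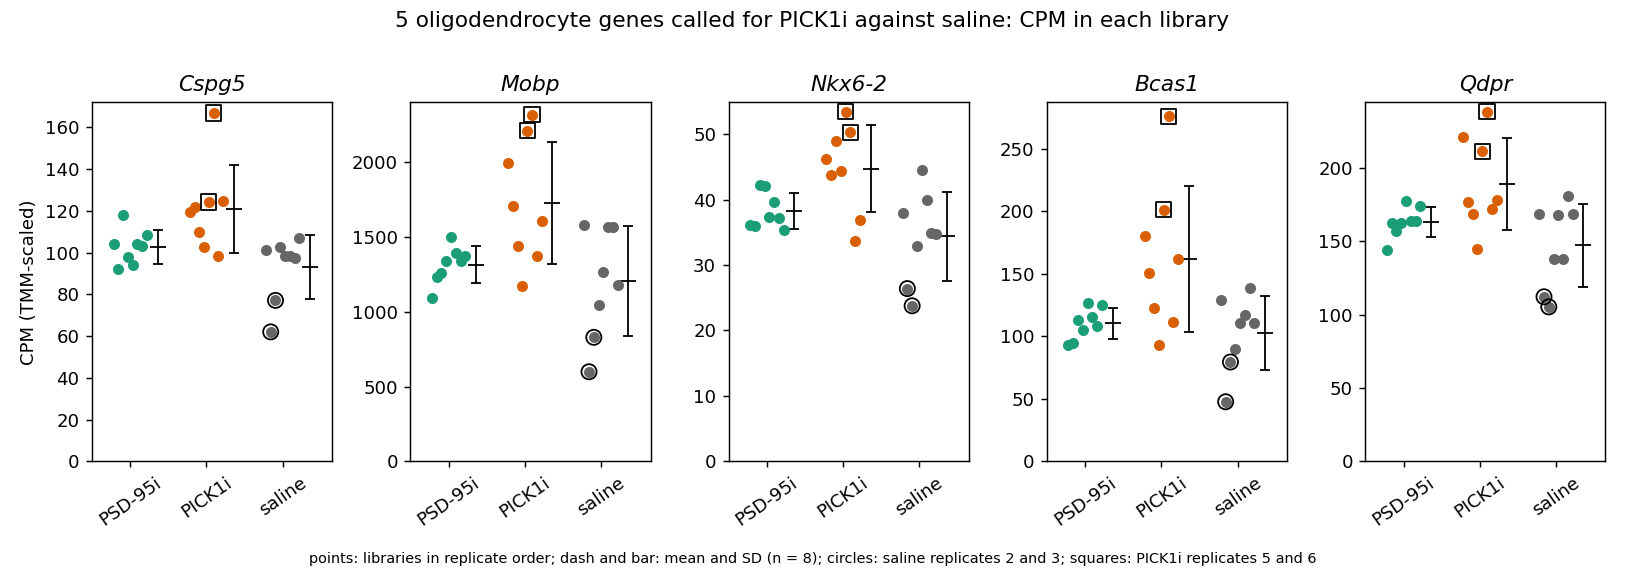
CPM (y axis, from 0) in each library of the 5 genes that passed for PICK1i against saline, by group (x axis). Points are libraries, dashes with bars are the mean and SD of 8 libraries, circles mark saline replicates 2 and 3 and squares mark PICK1i replicates 5 and 6. The circled libraries hold the lowest saline values of all 5 genes, and the PSD-95i libraries lie within a narrow band.

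The 4 classical myelin proteins did not pass. Mbp had 2338, 3450.0 and 5020 CPM as lowest, median and highest in PICK1i, against 1285, 2818 and 3528 CPM in saline, and its log2 fold change was 0.43 ± 0.17 (adjusted p = 0.0988, edgeR). The saline minimum was replicate 2 and the PICK1i maximum replicate 6, and 4 PICK1i libraries exceeded the saline maximum. Mag, the adhesion molecule of the innermost myelin layer, had 156.8, 204 and 295.8 CPM in PICK1i, against 91.5, 176.7 and 214 CPM in saline, with a log2 fold change of 0.36 ± 0.13 (adjusted p = 0.0792).

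Cnp, an enzyme of the cytoplasmic channels of myelin, spanned 135 to 238 CPM around 161 in PICK1i, against 85.3 to 183 CPM around 149.6 in saline. Only PICK1i replicate 6 lay above the saline maximum, and the log2 fold change was 0.24 ± 0.12 (adjusted p = 0.16, edgeR). Mog, an outer-surface protein of the sheath, spanned 34.7 to 54.1 CPM around 49.6 in PICK1i, against 22.3 to 53.5 CPM around 45.5 in saline. Its log2 fold change was 0.18 ± 0.13 (adjusted p = 0.375), and it was -0.01 ± 0.09 without saline replicates 2 and 3.

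The remaining 16 myelin genes had log2 fold changes between -0.20 and 0.35 for PICK1i against saline, and none passed. The highest were Gal3st1 (0.35 ± 0.16), which makes the myelin lipid sulfatide, Plekhb1 (0.31 ± 0.11), Opalin (0.31 ± 0.15), a membrane protein of mature oligodendrocytes, and Fa2h (0.29 ± 0.12), which hydroxylates myelin lipids. Car2, a carbonic anhydrase, Trf, transferrin, and Gjb1, the gap junction protein connexin 32, were at 0.26 ± 0.11, 0.25 ± 0.14 and 0.25 ± 0.14. Trf is uncertain, since it shares 2108 exonic bases on the same strand with the model gene Gm20425. Mal and Cldn11, a raft protein and the tight junction protein of myelin, were both at 0.22 ± 0.11. Ermn, Myrf, Ugt8a, Aspa, Apod and Tspan2 lay between 0.04 and 0.17. Enpp6, a choline phosphodiesterase of newly forming cells, was the 1 myelin gene below 0, at -0.20 ± 0.26.

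The low end of the saline range came from the same pair of libraries for nearly all genes. Saline replicate 2 or 3 held the lowest of all 24 values for 22 of the 24 myelin genes and 7 of the 8 precursor genes, the exceptions being Tspan2, Apod and Gpr17. Summed over the 24 myelin genes, these libraries had 3314 and 4266 CPM, against 5505 to 7886 CPM in the other 6 saline libraries. Summed over the 8 precursor genes, they had 326 and 329 CPM, against 469.9 to 551 CPM. The pituitary genes were high in exactly these 2 libraries, and astrocyte and neuron genes were low there too. The part of these in the myelin values was not tested.

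The high end of the PICK1i range came mostly from another pair. PICK1i replicate 5 or 6 held the highest of all 24 values for 17 of the 24 myelin genes, but for 2 of the 8 precursor genes. Their summed myelin CPM of 9794 and 10678 compared with 5539 to 8879 in the other 6 PICK1i libraries, whereas their summed precursor CPM of 553 and 567 lay just above the 502 to 545 of the others. In PICK1i replicate 6 the list of cortex and hippocampus genes summed to 613 CPM, against 235 to 321 CPM in the 6 libraries other than replicates 5 and 6. In PICK1i replicate 5, whose myelin sum was also high, the same list summed to 221 CPM, the lowest of the PICK1i libraries. Replicate 6 also held the lowest PICK1i values of the hypothalamic genes Agrp, Rax, Nr5a1 and Pomc. Replicates 5 and 6 belong, with 1 and 2, to the PICK1i libraries with a high mitochondrial share and relatively low long transcripts. The mean log2 deviation of the myelin genes from the average library was 0.108 to 0.471 in PICK1i replicates 1, 2, 5 and 6. It was -0.215 to 0.121 in PICK1i replicates 3, 4, 7 and 8. The part of neighbouring tissue or of these library traits in the myelin values was not tested.

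**Figure D3:**
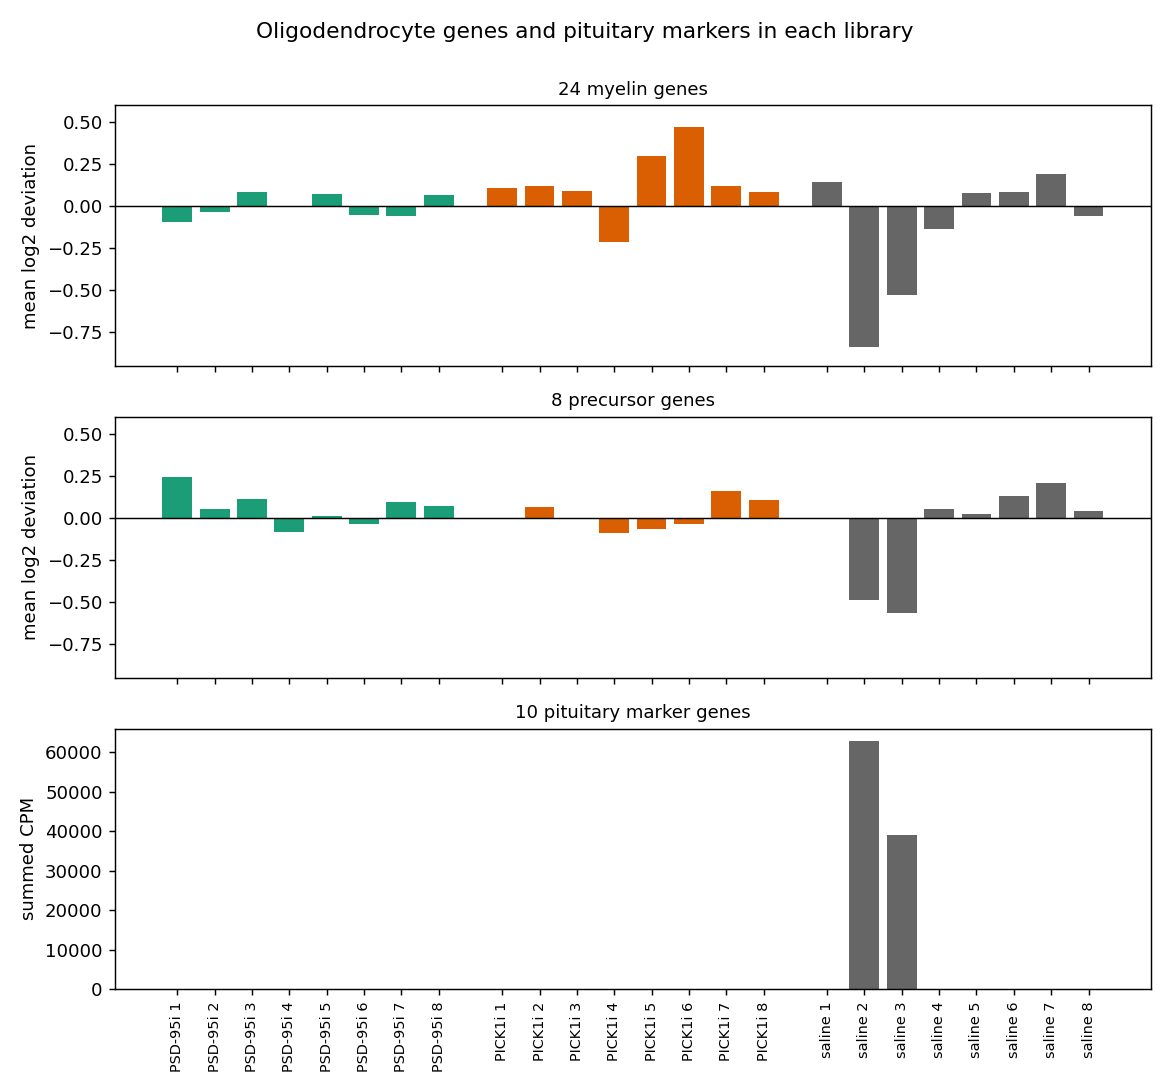
Mean log2 deviation of each library from the average library over the 24 myelin genes (top) and the 8 precursor genes (middle), and the summed CPM of 10 pituitary genes (bottom), for the 24 libraries (x axis, by group and replicate). Saline replicates 2 and 3 are low for both gene groups and are the 2 libraries with visible pituitary bars, and PICK1i replicates 5 and 6 are high for myelin genes.

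Removing these libraries ended the calls among the 32, and fewer of all genes passed as well. Without saline replicates 2 and 3, 0 of the 32 genes passed for PICK1i against saline, and 0.0316% of all genes did. The median log2 fold change was then 0.08 for the myelin genes, 16 of 24 above 0, and -0.01 for the precursor genes, 4 of 8 above 0. Without PICK1i replicates 1, 2, 5 and 6, 0 of 32 passed, as did 0 of all 16121 genes tested. The median was then 0.17 for the myelin genes, 21 of 24 above 0, and 0.13 for the precursor genes, 7 of 8 above 0. Without all 6 of these libraries, 0 of 32 and 0 of all 15992 genes tested passed. The medians were then 0.01 and 0.01, and 14 of 24 myelin genes were above 0. Leaving out any 1 of saline replicate 2, saline replicate 3, PICK1i replicate 5 or PICK1i replicate 6 also left 0 of 32. Over all genes, in that order, 404 of 15753, 633 of 15752, 299 of 15771 and 539 of 15769 passed, against 1434 of 15667 with all libraries.

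**Figure D4:**
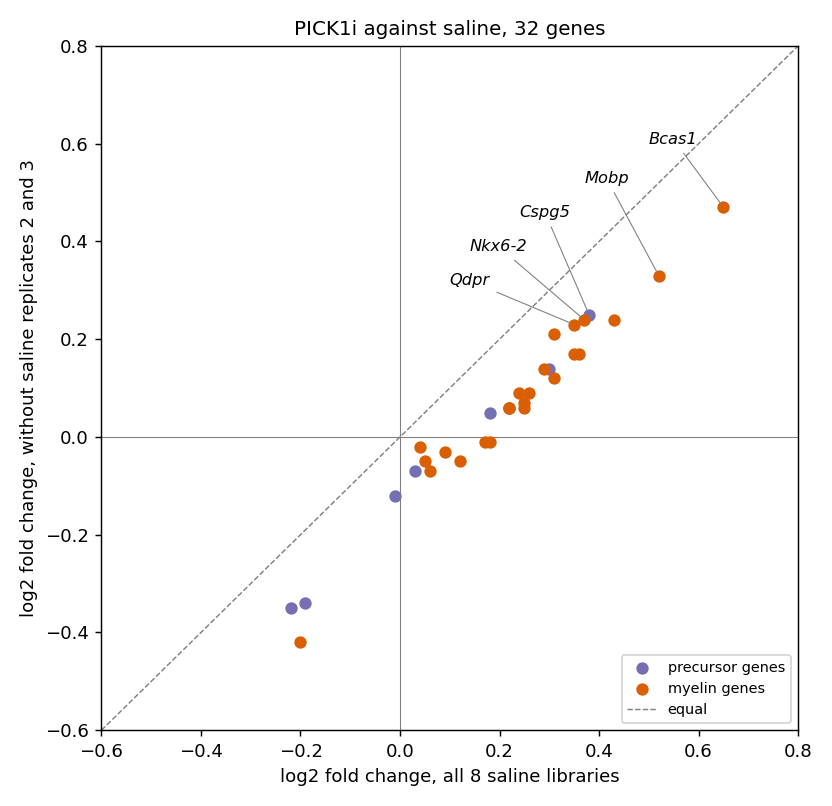
Log2 fold changes of the 32 genes for PICK1i against saline with all 8 saline libraries (x axis) and without saline replicates 2 and 3 (y axis), with the 5 genes that passed with all libraries named. All 32 points lie below the dashed line of equal values, Bcas1 at 0.65 and 0.47.

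For PSD-95i against saline, 0 of the 32 genes passed by edgeR, and 0% of all genes did. At an unadjusted p under 0.05 there were 0 of the 32 and 1719 of the 15667 genes. DESeq2 and limma-voom called 0 of the 32 and 0 of all genes as well. The median log2 fold change was 0.12 for the myelin genes, 21 of 24 above 0, and 0.14 for the precursor genes, 7 of 8 above 0. These medians, without saline replicates 2 and 3, were -0.06, 6 of 24 above 0, and 0.00, 4 of 8 above 0. All 32 genes overlapped between PSD-95i and saline, where 0.0574% of all genes did not. Mbp was at 0.00 ± 0.17, with 2394, 2670.3 and 2985 CPM as lowest, median and highest in PSD-95i, a span lying inside that of saline. Mag, Mog and Cnp were at 0.15 ± 0.13, 0.12 ± 0.13 and 0.16 ± 0.11. Pdgfra, Olig2 and Sox10 were at 0.11 ± 0.15, 0.10 ± 0.09 and 0.14 ± 0.11. The genes that passed for PICK1i had 0.14 ± 0.10 (Cspg5), 0.10 ± 0.18 (Bcas1), 0.13 ± 0.16 (Mobp), 0.15 ± 0.10 (Nkx6-2) and 0.15 ± 0.10 (Qdpr). Both inhibitor comparisons use the same saline libraries.

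The 8 PSD-95i libraries resembled each other closely in these genes. The coefficient of variation across libraries had a median over the 32 genes of 8.02% in PSD-95i, 17.9% in PICK1i and 22.6% in saline, and of 11.1% in saline without replicates 2 and 3. Car2 varied least, by 3.26% in PSD-95i, and Bmp4 varied most, by 70.3% in PICK1i. Bmp4 had few counts, and its values beside those of leptomeningeal genes are given below. The mean deviation of the myelin genes lay between -0.093 and 0.085 in PSD-95i, between -0.215 and 0.471 in PICK1i and between -0.838 and 0.19 in saline.

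For PSD-95i against PICK1i, 0 of the 32 genes passed by edgeR, and 0% of all genes did, with 7 of the 32 and 3789 of the 15667 genes at an unadjusted p under 0.05. All 32 genes overlapped between these groups, where 0.0511% of all genes did not. The median log2 fold change was -0.13 for the myelin genes, 21 of 24 below 0, and -0.01 for the precursor genes. Bcas1 had 93.4, 111 and 127 CPM as lowest, median and highest in PSD-95i, against 93.3, 156 and 275.9 CPM in PICK1i. Every PSD-95i library was below the PICK1i median, and the log2 fold change was -0.55 ± 0.18 (adjusted p = 0.0792). Plekhb1 followed with -0.32 ± 0.11 (adjusted p = 0.0806), Mbp with -0.43 ± 0.17 (adjusted p = 0.127) and Mobp with -0.39 ± 0.16 (adjusted p = 0.131). Gpr17 went the other way, at 0.33 ± 0.13 (adjusted p = 0.121), with all 8 PSD-95i libraries above the PICK1i median. DESeq2 called Bcas1 and Plekhb1 lower, at 13.2% of the 10110 genes to which it gave an adjusted p in this comparison. With saline replicates 2 and 3 out of the fit, which changes the estimate of spread and not the libraries compared, Bcas1, Mbp, Mobp and Plekhb1 passed as lower, at 7.64% of all genes. Without PICK1i replicates 1, 2, 5 and 6, 0 of 32 and 0 of all 16121 genes tested passed, and the myelin median was -0.05.

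At the level of transcripts, 112 of the 145 annotated transcripts of the 32 genes were tested. For PICK1i against saline 3 passed, all higher, which is 2.68% against 2.00% of all transcripts in either direction and 0.977% as higher. Cspg5-204, the main form of Cspg5 with 53.2% ± 2.56 of its counts in saline, had a log2 fold change of 0.36 ± 0.09 (adjusted p = 0.0373). Qdpr-201 was at 0.37 ± 0.09 (adjusted p = 0.0373) and Mobp-201 at 0.57 ± 0.15 (adjusted p = 0.0434), both minor forms with 16.5% and 5.27% of their gene's counts in saline. The form with most Mobp counts, Mobp-204, is annotated as subject to nonsense-mediated decay and not as protein-coding. It took 85.4% ± 1.63 of Mobp counts in PICK1i and 85.2% ± 0.850 in saline, and did not pass (0.51 ± 0.16, adjusted p = 0.0655). Bcas1-208 likewise held 71.8% ± 7.54 of Bcas1 counts in PICK1i and 74.3% ± 4.28 in saline. For both genes the difference in share was within the SDs. A single transcript held over 50% of the counts in 23 of the 32 genes. For PSD-95i against saline and PSD-95i against PICK1i, 0 of 112 transcripts passed by edgeR, where 0% of all transcripts did. At an unadjusted p under 0.05 there were 1 and 37 of the 112, and 2768 and 8092 of the 37955 transcripts, in these comparisons. None passed for PICK1i against saline when saline replicates 2 and 3 were left out.

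Promoters of Mobp, Nkx6-2 and Qdpr, 3 of the 5 genes that passed, are shown because Sox10 and Myrf, which control myelin genes, are themselves among the 32. Those of Cspg5 and Bcas1 are not shown here. RefSeq windows of 300 bases (250 before the transcript start to 50 after it, GRCm38.p6) were found for 22 of the 32 genes, 31 windows in all. They were searched on both strands for ACAAAG, the core bound by SOX proteins, for CTGGNAC, called a Myrf match here, and for CAGCTG, an E-box that is its own reverse complement. N stands for any base, so a Myrf match here can be looser than the site that Myrf binds. Capitals mark the matches in 5 windows, given 5′ to 3′ on the strand of the gene. They are Mobp (chr9:120149492-120149791, plus strand), Nkx6-2 (chr7:139582748-139583047, minus), Qdpr (chr5:45450180-45450479, minus), and, for comparison, the most upstream windows of Mag (chr7:30914873-30915172, minus) and Cnp (chr11:100574689-100574988, plus).
Mobp: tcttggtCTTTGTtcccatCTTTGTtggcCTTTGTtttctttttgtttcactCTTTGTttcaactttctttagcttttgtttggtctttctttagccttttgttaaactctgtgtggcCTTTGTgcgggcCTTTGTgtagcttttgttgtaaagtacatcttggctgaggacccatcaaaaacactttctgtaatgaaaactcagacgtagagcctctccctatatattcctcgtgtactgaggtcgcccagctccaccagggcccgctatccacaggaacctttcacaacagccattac
Nkx6-2: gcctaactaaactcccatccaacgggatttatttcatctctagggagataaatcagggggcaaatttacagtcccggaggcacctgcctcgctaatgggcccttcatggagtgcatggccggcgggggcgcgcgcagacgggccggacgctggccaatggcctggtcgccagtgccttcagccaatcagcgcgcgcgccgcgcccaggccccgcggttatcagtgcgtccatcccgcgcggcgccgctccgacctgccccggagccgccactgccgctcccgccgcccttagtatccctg
Qdpr: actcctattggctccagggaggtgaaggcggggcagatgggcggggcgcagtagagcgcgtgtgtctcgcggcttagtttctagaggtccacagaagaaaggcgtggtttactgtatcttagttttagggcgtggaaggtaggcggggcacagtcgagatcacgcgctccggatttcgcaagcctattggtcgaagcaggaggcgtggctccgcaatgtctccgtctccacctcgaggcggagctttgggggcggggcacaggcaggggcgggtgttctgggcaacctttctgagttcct
Mag: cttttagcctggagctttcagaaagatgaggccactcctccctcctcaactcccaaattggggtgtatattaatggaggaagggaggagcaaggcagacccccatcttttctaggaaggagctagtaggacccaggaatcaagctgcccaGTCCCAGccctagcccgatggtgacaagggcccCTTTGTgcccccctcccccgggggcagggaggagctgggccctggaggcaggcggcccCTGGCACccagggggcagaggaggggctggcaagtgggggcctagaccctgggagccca
Cnp: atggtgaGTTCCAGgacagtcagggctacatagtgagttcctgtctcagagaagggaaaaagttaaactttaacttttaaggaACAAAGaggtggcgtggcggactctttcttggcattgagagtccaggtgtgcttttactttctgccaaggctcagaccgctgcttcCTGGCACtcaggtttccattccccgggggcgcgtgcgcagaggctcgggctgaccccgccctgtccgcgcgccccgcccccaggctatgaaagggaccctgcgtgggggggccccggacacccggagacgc

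The Mobp window held 6 SOX matches, all as the reverse complement CTTTGT, which begin 243, 231, 221, 198, 132 and 120 bases before the start. It held no match to the other motifs. The Mag and Cnp windows each held 1 SOX and 2 Myrf matches, and the Nkx6-2 and Qdpr windows held none of the 3 motifs. A SOX match was present in 32.3% of the 31 windows, against 18.7% of all 32851 promoter windows. A Myrf match was present in 32.3% against 19.3%, and the E-box in 9.7% against 16.3%. Some genes have several overlapping windows, so the 31 are not independent. These are matches of letters, not measured binding.

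Other genes of the lineage were taken from 4 lists of precursor, newly formed, myelin and signalling genes, 96 in all. For PICK1i against saline, 10 of the 93 tested passed by edgeR, 2 higher and 8 lower, which is 10.8% against the 9.15% of all genes. In the myelin list, 32 of 40 tested genes were above 0, with a median log2 fold change of 0.13, and 23 of 40 with a median of 0.02 without saline replicates 2 and 3. The higher ones that passed were the myelin-list genes Josd2, a deubiquitinase, at 51.4 ± 9.59 CPM in PICK1i and 37.6 ± 6.31 CPM in saline, and Sirt2, a deacetylase abundant in myelin, at 112.5 ± 14.9 CPM in PICK1i and 95.8 ± 6.14 CPM in saline (SD, n = 8 each). The lower ones included Bmpr1a, a BMP receptor (-0.39 ± 0.10), and Igf1r, the IGF-1 receptor (-0.51 ± 0.14). In the list of newly formed oligodendrocytes, 8 of 10 were below 0, and the 2 that passed were Casr, the calcium-sensing receptor (-1.18 ± 0.27), and Tcf7l2, a Wnt effector of differentiating cells (-0.48 ± 0.14). In the precursor list, Ccnd1, cyclin D1, fell by 0.37 on the log2 scale and Sox4 by 0.59. Gsn, the actin-severing protein gelsolin, fell by 0.31. Without saline replicates 2 and 3, 0 of the 93 passed, and 5 of all 15820 genes tested did.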

How the data were processed

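The authors deposited each gene's and each transcript's estimated counts, which are expected counts with no normalisation. Per the submitters' processing notes, the tools were bcl2fastq 2.20.0, Salmon and STAR and the build was GRCm38. Their settings, the annotation used and whether strand was read are not stated in the labels or file headers. Within a tolerance of 0.001, 95.7% of gene values were whole. Groups came from the labels, and no pair of replicates was identical. Counts were rounded, filtered by filterByExpr (minimum count 10), scaled by TMM and tested in 1 fit of 24 libraries (21 residual degrees of freedom) with edgeR 4.0.16 (R 4.3.3), quasi-likelihood F test. P-values are two-sided and adjusted by Benjamini and Hochberg over 15667 genes or 37955 transcripts, with a threshold of 0.05. Standard errors were derived from the F statistic. TPM was computed from the counts and the annotated transcript lengths. Positions and overlaps are from GENCODE M21, which held 45143 of the gene identifiers. The fit was tested on simulated data. Alternatives were RLE scaling, other filters, a fit of only the 2 groups, a replicate block, DESeq2 1.42.0, limma-voom (limma 3.58.1), a length covariate and omitted libraries. The 32 genes, the other lists and the alternatives were chosen with earlier results of these data known, and limma-voom with consecutive libraries as a random block was added after the files were seen. Genes given in full are those that passed and 7 defining genes, Pdgfra, Olig2, Sox10, Mbp, Mog, Mag and Cnp, and other-list genes up to 4 per list by smallest p. Some results are not reported here.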

Additional observations from a re-analysis of the deposited data

Results flagged for a closer look

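Within each group of 8 libraries, the highest or lowest value was compared with its nearest neighbour, and 7 of 102 groups of values had a library far from the others, where chance alone gives about 5%. PICK1i replicate 6 was the high library for 4 genes: Cspg5 at 166.9 CPM (next 124.6), Cnp at 237.8 CPM (next 176.7), Fa2h at 35.24 CPM (next 27.62) and Trf at 201.4 CPM (next 141.4). PICK1i replicate 2 was high for Bmp4, at 6.446 CPM (next 3.64). PSD-95i replicate 5 was high for Tspan2, at 128.6 CPM (next 113.9). Saline replicate 7 was high for Apod, at 408.7 CPM (next 196.2). Apod is also made by fibroblasts of the meninges, and a list of 10 leptomeningeal genes was highest in that library too, at 474 CPM against a saline median of 162 CPM. Its part in the Apod value was not tested. In every group, the library highest for this list was also highest for Bmp4. These were PSD-95i replicate 1 (279.6 and 5.00 CPM), PICK1i replicate 2 (293 and 6.446 CPM) and saline replicate 7 (474 and 6.63 CPM). Saline replicate 3, with 200 CPM for the list, had the lowest saline Bmp4 value, 1.00 CPM. The part of leptomeningeal tissue in the Bmp4 values was not tested either.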

How the results depend on the processing

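For PICK1i against saline, the count of 5 genes was 0 with only the 2 groups fitted, without saline replicates 2 and 3, without PICK1i replicates 1, 2, 5 and 6, without all 6, with the length covariate and with limma-voom and consecutive libraries as a random block, and ran from 0 to 7 with single libraries left out. The myelin median, 0.25, was 0.24 with only the 2 groups, 0.23 with the length covariate, 0.27 with the random block, 0.17 without the 4 PICK1i libraries, 0.08 without saline replicates 2 and 3 and 0.01 without all 6. The count was 1 (Cspg5) without PICK1i replicate 1 and 2 without saline replicate 4. The 3 transcripts were 0 with only the 2 groups fitted, with the replicate block and without each of those 3 sets of libraries. The 10 other lineage genes were 0 under the first 5 of these changes and 3 with the random block, and ran from 2 to 18 with single libraries left out. For PSD-95i against PICK1i, the count of 0 genes was 4 without saline replicates 2 and 3 and 2 by DESeq2, and ran from 0 to 3 with single libraries left out. The count of 0 other lineage genes was 6 without saline replicates 2 and 3, 3 by DESeq2 and 1 by limma-voom, and ran from 0 to 10 with single libraries left out. For PSD-95i against saline, no alternative called any of the 32 genes.

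Over all genes, the count of 1434 for PICK1i against saline was 1963 by DESeq2 and 0 with only the 2 groups fitted, without the 4 PICK1i libraries and without all 6. It was 5 without saline replicates 2 and 3, 2 with the length covariate and 316 with the random block. With single libraries left out it ran from 299 to 2757. For PSD-95i against PICK1i, the count of 0 was 1208 without saline replicates 2 and 3, 1334 by DESeq2 and 429 by limma-voom, and ran from 0 to 2315 with single libraries left out. Same-numbered libraries of PICK1i and saline correlated at -0.161 to 0.15, so the numbers were not taken as pairs. With the replicate block the count of genes for PICK1i against saline was 5. No direction of a passed gene reversed. The cause of these changes was not tested. Bmp4 and Enpp6, with as few as 6 and 4 counts in a library, are limited by depth.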
